A study of Mus musculus with 2 samples.

Results

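The genes described here are 45 mouse genes of ribosome production in the nucleolus, chosen by symbol from a list of genes with known roles in the pathway, with no measured value in the rule, out of 43346 named genes in the tables. All 45 were found in both libraries by their Ensembl identifiers, and they lie on 18 chromosomes. Their levels were measured by single-end sequencing of polyadenylated RNA from CH12.LX, an immortalized B-cell lymphoma line of the mouse strain B10.H-2aH-4bp/Wts with the sex given as female. The labels name no treatment, no second line and no age, so the 2 libraries, biological replicates 1 and 2, form 1 group. The values therefore describe levels in this one line and the difference between its libraries, written throughout as replicate 1 over replicate 2. As the RNA is that of a bulk culture, fewer cells that express a gene and less of its RNA per cell cannot be told apart.

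Ribosomes are built in the nucleolus, where RNA polymerase I (Pol I) copies the ribosomal DNA into a long precursor RNA. Small nucleolar RNAs (snoRNAs) held in protein complexes guide its chemical modification and some of its cuts, the box C/D class for ribose methylation and the box H/ACA class for pseudouridine. Further factors assemble on the precursor and split it into the parts of the small and the large ribosomal subunit. In B cells and their lymphomas, genes of this pathway are known among the targets of the transcription factor Myc, which binds DNA letters called the E-box (CACGTG).

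Of the 45 genes, 39 had an entry in the RefSeq promoter table (build GRCm38.p6), which holds the 250 bases before and 50 after a start site. Of these, 3 had more than 1 window. The E-box CACGTG, which reads the same on both strands, was found in 8 of these 39 windows (20.5%), those of Imp4, Nop2, Pes1, Pno1, Tsr1, Utp20, Utp4 and Wdr43. The share over all 27025 genes of the table was 8.09%, and over 8236 protein-coding genes detected in CH12.LX it was 12.1%. In 6 of the 8 genes the E-box began after the start site, and in Imp4 and Nop2 before it. Counting only the bases before the start, the share was 5.13% of the 39 genes, against 6.86% of all genes and 10.1% of detected protein-coding genes. The promoters of the 5 E-box genes with the highest levels are shown from 150 bases before to 25 after the start, with the E-box in capitals, so that its place can be compared.
Pes1: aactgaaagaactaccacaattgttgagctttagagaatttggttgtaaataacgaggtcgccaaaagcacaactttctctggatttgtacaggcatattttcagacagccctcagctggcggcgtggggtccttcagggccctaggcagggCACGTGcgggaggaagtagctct
Imp4: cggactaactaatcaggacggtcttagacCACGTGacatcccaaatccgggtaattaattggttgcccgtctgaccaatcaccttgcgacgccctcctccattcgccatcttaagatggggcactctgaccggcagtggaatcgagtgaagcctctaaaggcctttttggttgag
Wdr43: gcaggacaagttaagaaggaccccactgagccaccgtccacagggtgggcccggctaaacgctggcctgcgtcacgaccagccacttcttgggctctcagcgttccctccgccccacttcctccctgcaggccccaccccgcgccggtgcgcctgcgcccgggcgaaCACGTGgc
Utp4: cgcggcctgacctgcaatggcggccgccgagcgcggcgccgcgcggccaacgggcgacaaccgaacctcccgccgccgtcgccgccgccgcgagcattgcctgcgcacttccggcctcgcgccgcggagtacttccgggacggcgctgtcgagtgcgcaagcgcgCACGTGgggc
Nop2: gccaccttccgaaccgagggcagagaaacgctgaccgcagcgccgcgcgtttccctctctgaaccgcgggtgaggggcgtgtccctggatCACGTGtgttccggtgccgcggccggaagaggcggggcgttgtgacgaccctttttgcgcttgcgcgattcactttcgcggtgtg

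All 5 lie on the plus strand, Pes1 at chr11:3963825-3963999, Imp4 at chr1:34439679-34439853, Wdr43 at chr17:71616065-71616239, Utp4 at chr8:106893490-106893664 and Nop2 at chr6:125131733-125131907. With the RefSeq start site as base 1, the E-box began at position 3 in Pes1, 16 in Utp4 and 18 in Wdr43. In Nop2 it began 60 bases before the start and in Imp4 121 before it. For Wdr43 the GENCODE gene begins at 71615895, before the whole window shown, so its RefSeq start is not the first base of that gene. It began at position 25 in Tsr1 and at 38 in both Pno1 and Utp20. The looser letters CANNTG, which contain the E-box and read the same on both strands, occurred in 25 of the 39 windows (64.1%), against 74.99% of all genes and 66.7% of detected protein-coding genes. Other letters were searched on both strands after the promoters had been seen. CGGAAG, the core that ETS family factors bind, occurred in 21 of 39 windows (53.8%), against 18.8% of all genes and 38.8% of detected protein-coding genes. CCAAT, the letters bound by NF-Y, occurred in 16 (41.0%), against 41.1% and 43.7%. Imp4, Nop2, Tsr1, Utp20 and Utp4 held both the E-box and CGGAAG. A match is a description of the letters and not of binding, which was not measured here.

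**Figure D1:**
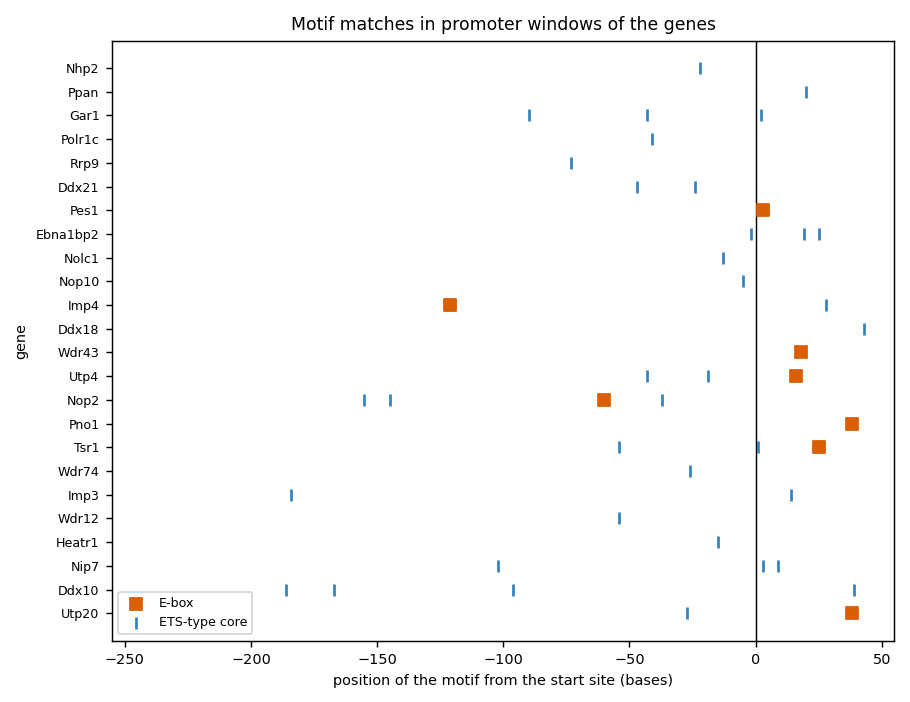
Position of E-box matches (orange squares, first letter) and of CGGAAG matches, the ETS-type core (blue ticks), in bases from the start site (vertical line), for the genes with at least 1 match, ordered by level from high to low. The E-box lies after the start in 6 of 8 genes, and CGGAAG occurs in 21 of the 39 genes with a promoter window.

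All 45 genes were detected, which means at least 1 TPM in both libraries, where TPM is a level corrected for transcript length and scaled to the same total in each library. The same held for 48.0% of 21474 protein-coding genes. The median of the 45 mean levels was 141 TPM (quartiles 78.5 and 251), against 21.03 TPM (quartiles 7.77 and 55.0) for the 10317 detected protein-coding genes. On average over the libraries 30 of the 45 (66.7%) stood at 100 TPM or more, against 13.8% of detected protein-coding genes. By mean TPM, 23 of the 45 lay in the top 10% of those genes, 40 in the top 25% and all 45 in the top 50%. The lowest was Utp20 at 30.7 TPM, higher than 60.8% of detected protein-coding genes, and the highest was Npm1 at 5258 TPM, 171 times that level.

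Together the 45 genes held 412385 of the 22986749 expected counts of named genes in replicate 1, or 1.79% (Wilson 95% interval 1.79 to 1.80). In replicate 2 they held 423813 of 25701557, or 1.65% (1.64 to 1.65). Their TPM summed to 15819 in replicate 1 and 14343 in replicate 2, and Npm1 and Ncl together made up 48.1% and 48.8% of these sums. The intervals cover counting error only. Mitochondrial transcripts took 2.02% of counts in replicate 1 and 3.04% in replicate 2, and their part in the differences given here was not tested. Of markers of the labelled cell type, all 8 B cell genes were detected, at a summed 1698 and 1849 TPM in replicates 1 and 2. None of 6 T cell, 6 myeloid, 6 erythroid and 6 fibroblast markers was detected, with summed levels of 1.46 and 2.00 TPM, 0.70 and 0.75 TPM, 0.70 and 0.38 TPM, and 0.57 and 0.64 TPM. Cd4 was the highest of these markers at 0.86 and 1.18 TPM, and Themis, Mpo, Hbb-bs and Col3a1 averaged 0 TPM.

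**Figure D2:**
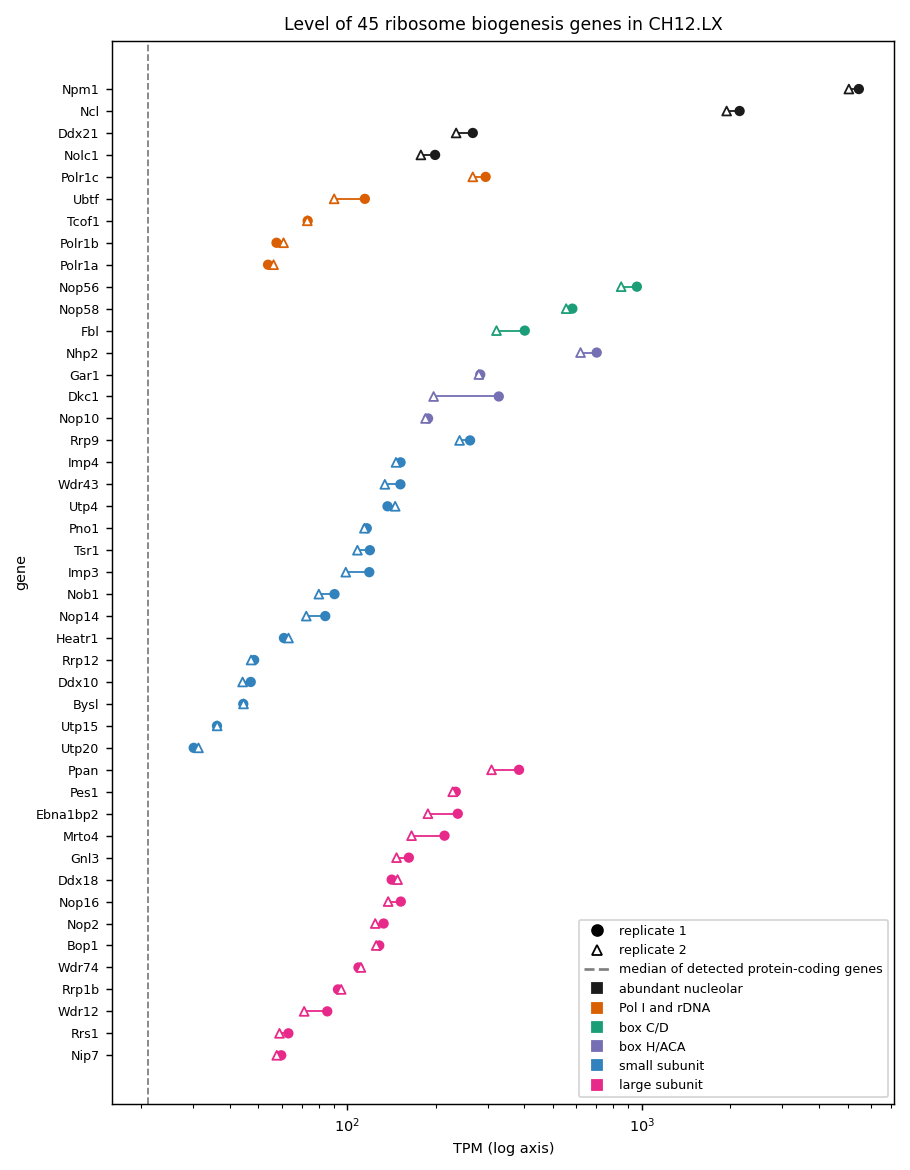
Level of each of the 45 genes in TPM on a log axis, grouped by role, with replicate 1 as filled circles and replicate 2 as open triangles. All 45 lie to the right of the dashed line at 21.03 TPM, the median of detected protein-coding genes, and Npm1 and Ncl stand above all others in both libraries.

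Of the 4 abundant nucleolar proteins, Npm1 and Ncl stood highest of the 45 genes, and Ddx21 and Nolc1 lay lower. Npm1, nucleophosmin, a histone and ribosome assembly chaperone, (chromosome 11, 33152287 to 33163206, minus strand) stood at 5463 TPM in replicate 1 and 5053 TPM in replicate 2 (mean 5258 ± 290 TPM, SD, n = 2). Ncl, nucleolin, an RNA-binding protein of precursor processing (chromosome 1, 86344719 to 86359400, minus strand), stood at 2151 and 1943 TPM. The values of these genes do not overlap each other or those of any other member. The RNA helicase Ddx21, which binds Pol I transcripts and snoRNAs, reached 267 and 234 TPM. Nolc1, a phosphoprotein that chaperones snoRNA complexes, reached 199 and 178 TPM. All 4 read higher in replicate 1 than in replicate 2.

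The 5 genes of Pol I and its factors had a median of 73.3 TPM, about the level of the small subunit group. Polr1c, a subunit shared by Pol I and RNA polymerase III, stood at 295 TPM in replicate 1 and 267 TPM in replicate 2. The large subunits that form the catalytic centre of Pol I were lower, with Polr1b at 57.6 and 60.8 TPM and Polr1a at 53.9 and 56.3 TPM. Between the highest and the lowest of these 3 subunits the ratio of TPM was 5.48 in replicate 1 and 4.75 in replicate 2. Ubtf, the HMG-box factor that coats active ribosomal DNA, stood at 115 and 90.3 TPM. Tcof1, treacle, a scaffold that joins transcription to modification of the precursor, stood at 73.5 and 73.2 TPM, one of the closest matches between libraries.

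Among the core proteins of the snoRNA complexes, the box C/D class stood higher, with a median of 568 TPM against 272 TPM for the box H/ACA class. Nop56, a scaffold protein of the C/D core, stood at 963 and 852 TPM in replicates 1 and 2. Its partner Nop58 stood at 582 and 554 TPM, and Fbl, fibrillarin, the methyltransferase of the complex, at 401 and 321 TPM. The order was the same in both libraries, and the 3 genes did not overlap. In the H/ACA core, Nhp2 led at 704 and 620.1 TPM, while Nop10 was lowest at 188 and 185 TPM. Gar1 held 283 and 280.0 TPM. Dkc1, dyskerin, the pseudouridine synthase, stood at 327 TPM in replicate 1 but 197 TPM in replicate 2, so its place between Nhp2 and Nop10 changed with the library. The ratio of highest to lowest TPM was 3.74 and 3.36 in the H/ACA core and 2.40 and 2.65 in the C/D core.

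The 15 small subunit genes were the lowest group apart from Pol I, with a median of 85.4 TPM. The highest was Rrp9, a protein of the snoRNA complex that guides the first cuts, at 261 and 241 TPM in replicates 1 and 2. Wdr43, Utp4, Heatr1 and Utp15 belong to the t-UTP group, which joins the precursor earliest. Wdr43 stood at 152 and 134 TPM, Utp4 at 137 and 146 TPM, Heatr1 at 61.0 and 63.2 TPM and Utp15 at 36.1 and 36.2 TPM. The order of Wdr43 and Utp4 differed between the libraries, whereas Heatr1 and Utp15 lay below both in each. Imp4 and Imp3, known as partners in 1 complex, stood at 152 and 147 TPM and at 119 and 98.9 TPM. Of the factors that act late, Nob1, the nuclease that makes the last cut of the small subunit RNA, reached 90.6 and 80.1 TPM. Its partner Pno1 reached 117 and 114 TPM, and Tsr1, a GTPase-like factor of late assembly, 119 and 108 TPM. At the low end lay the export and assembly factor Rrp12 at 48.3 and 47.2 TPM, the helicase Ddx10 at 47.1 and 44.2 TPM, Bysl at 44.4 and 44.5 TPM, and the large scaffold Utp20 at 30.1 and 31.3 TPM. The remaining gene, the processome component Nop14, held 84.3 and 72.7 TPM.

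The 14 large subunit genes had a median of 137 TPM and ran between Nip7, at 59.7 and 57.7 TPM, and Ppan, at 383 and 309 TPM in replicates 1 and 2, both assembly factors of the subunit. In the PeBoW complex, which is needed to process the large subunit RNA, Pes1 stood at 234 and 228 TPM, Bop1 at 129 and 126 TPM and Wdr12 at 85.6 and 71.5 TPM. The order was the same in both libraries with a ratio of highest to lowest of 2.73 and 3.20. Mrto4, which holds the place of a ribosomal stalk protein during assembly, stood at 214 and 165 TPM. Ebna1bp2, an assembly factor, stood at 238 and 188 TPM. In both genes replicate 1 was above replicate 2. Gnl3, nucleostemin, a nucleolar GTPase, reached 162 and 147 TPM, and Nop2, an RNA methyltransferase, 133 and 125 TPM. The helicase Ddx18 reached 142 and 148 TPM. The others, Nop16, Wdr74, Rrp1b and Rrs1, averaged 145, 110.3, 94.3 and 61.0 TPM.

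Ordered by mean TPM, 27 of the 44 pairs of neighbouring genes overlapped between libraries, so that their order is not beyond the spread of 2 samples, and 17 did not. The 5 pairs from Npm1 through Ncl, Nop56, Nhp2 and Nop58 to Fbl were each separate. From Gar1 to Ddx21, through Polr1c, Dkc1 and Rrp9, each neighbour overlapped the next.

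The pathway is larger than these 45 genes. Of 112 further genes of Pol I, snoRNA complexes, subunit assembly and the RNA-cutting enzymes RNase MRP and P, 110 were measured and Nopchap1 and Riok2 were not analysed here. Of those 110, 109 were detected. Over all 110 the median was 64.6 TPM, and 31.8% averaged 100 TPM or more. The highest were the large subunit factors Rsl1d1, at 381 and 363 TPM in replicates 1 and 2, and Eif6, at 354 and 344 TPM. Among small subunit factors Lyar stood at 295 and 229 TPM and Emg1 at 240 and 217 TPM, with Utp14b lowest at 8.48 and 7.63 TPM. Snu13, a box C/D core protein, stood at 374 and 315 TPM, and the helicase-like Ruvbl2, of snoRNA complex assembly, at 169 and 158 TPM. Polr1d, a subunit shared by Pol I and RNA polymerase III, stood at 261 and 234 TPM, and Taf1d, of the Pol I selectivity factor, at 103 and 97.0 TPM. The lowest of those lists were Nufip1 at 22 and 18.1 TPM, the termination factor Ttf1 at 8.94 and 8.62 TPM, and the helicase Ddx31 at 14 and 13.8 TPM. In the RNase MRP and P list Pop5 led at 127 and 92.7 TPM, followed by Pop1 at 76.1 and 81.5 TPM, and Rpp25, at 1 and 2 counts or 0.05 and 0.08 TPM, was the one not detected.

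**Figure D3:**
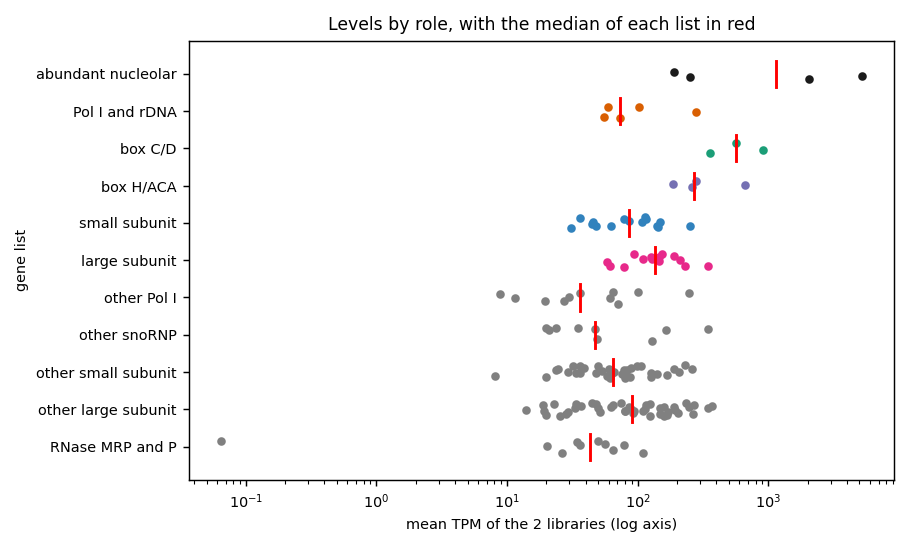
Mean TPM of the 2 libraries on a log axis for each gene, with the 45 genes by role in colour and the 110 further pathway genes in grey, and a red line at the median of each list. The medians run from 73.3 to 1149 TPM in the coloured groups and from 36.5 to 90.5 TPM in the grey ones for the lists of Pol I, snoRNA complexes, subunits and RNase.

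Paralogs of the members differed widely in level. Npm3 stood at 183 and 175 TPM, whereas its relative Npm2, known from oocytes, stood at 0.19 and 0.11 TPM. Fbll1, the paralog of Fbl, had 0 and 1 counts, and neither it nor Npm2 was detected. Rrp1, the paralog of Rrp1b, was above it at 322 and 223 TPM. Myc was present at 131 and 131 TPM and its partner Max at 78.3 and 89.4 TPM. Mycn was at 0 counts in each library, and 3 counts over both, the limit such a zero sets, would be 0.0452 TPM. Mycl at 0.50 and 0.33 TPM and Mxd1 at 0.66 and 0.71 TPM were not detected.

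Reads of a gene are shared out among its annotated transcripts, and this bears on the levels. The 45 genes had 201 transcripts in the tables, with 1 transcript for 19 genes and more for 26. In 26 genes the leading transcript held 80% or more of the gene's TPM in both libraries, and in 42 the same transcript led. The leading transcript was of a protein-coding type in 37 genes. Each of these counts includes the 19 genes with 1 transcript, all coding, for which the outcome is fixed. Retained-intron transcripts, which keep an intron, held 10% or more of TPM in both libraries in 7 of the 19 genes that have one annotated. The share over other genes was not computed, so whether this is unusual is not known.

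Ncl had the largest such share by estimate, with retained-intron transcripts holding 96.4% of its TPM in replicate 1 and 97.2% in replicate 2. They were led by Ncl-202 at 54.3% and 60.8% and Ncl-205 at 41.8% and 36.1%. Protein-coding transcripts of Ncl held 3.59% and 2.80%. The annotated lengths differ widely, with 8202 bases for the coding Ncl-201, 3072 for Ncl-202 and 601 for Ncl-205. Whether Ncl RNA keeps an intron was not tested. In the box H/ACA genes, Nhp2-201, a retained-intron transcript, held 56.0% and 54.4% and the coding Nhp2-202 held 44.0% and 45.6%. Gar1-205, also with a retained intron, held 48.9% and 40.8%, while the coding Gar1-201 held 26.6% and 16.3%. In Nop56 the coding Nop56-202 held 37.7% and 45.2%, and Nop56-208, with a retained intron, 33.7% and 26.8%. In Ncl, Nhp2 and Gar1 a retained-intron form thus held more TPM than any single coding form in both libraries. TPM is corrected for length, so short forms weigh more in it than in counts. By counts Nhp2-202 had 5088 and 5160, against 5064 and 4824 for Nhp2-201. Gar1-201 had 1518 and 1023 counts, against 857 and 786 for the 418-base Gar1-205. For Ncl the retained-intron form stayed ahead, with 58033 and 65287 counts for Ncl-202 against 7044 and 5865 for Ncl-201.

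Outside retained introns, Ebna1bp2-202, a processed transcript without an annotated reading frame, held 70.7% and 71.7%, and the coding Ebna1bp2-201 held 20.1% and 17.9%. Imp4 was led by Imp4-203, a processed transcript, at 44.3% and 38.4% and Imp4-204, of a nonsense-mediated decay type, at 35.6% and 38.7%. Rrp9-202, a processed transcript, held 38.5% and 40.7%, and Rrp9-207, of a decay type, 32.2% and 33.1%. In 6 genes, Ncl, Imp4, Ebna1bp2, Rrp1b, Rrp9 and Nhp2, protein-coding transcripts held under 50% of TPM in both libraries. The share over other genes was not computed. By counts the coding Imp4-201 had 1985 and 2489 of 3538 and 4122, and Rrp9-201 had 1806 and 1584 of 3177 and 3113. The coding Ebna1bp2-201 had 2283 and 1787 counts, against 2058 and 1835 for Ebna1bp2-202. In Rrp1b the retained-intron Rrp1b-205 held 31.3% and 26.3% of TPM and the coding Rrp1b-201 22.4% and 25.7%. Rrp1b-201 had 1649 and 2158 of the 4200 and 4701 counts of its gene. Coding transcripts led Polr1b, Polr1c, Pes1, Nop58, Wdr12 and Ppan with under 80% of TPM in both libraries. Polr1b-202 held 76.2% and 74.0%, ahead of Polr1b-204 at 13.7% and 15.9%. Polr1c-201 held 62.5% and 69.4%, with the decay-type Polr1c-206 at 35.3% and 27.8%. Pes1-201 held 57.3% and 53.3%, ahead of Pes1-204, a processed transcript, at 25.2% and 44.7%. These 3 genes thus divide their TPM between a coding form and one not typed as coding. By counts the second form weighed less. Polr1b-204 had 73.8 and 101 counts against 2844 and 3244 for Polr1b-202. Polr1c-206 had 670 and 531 against 3851 and 4302 for Polr1c-201, and Pes1-204 had 811 and 1559 against 6294 and 6364 for Pes1-201. Nop58-206 held 41.8% and 44.3% and Nop58-201 held 32.5% and 34.97%, both coding. Wdr12-203 held 68.7% and 75.3%, ahead of the coding Wdr12-207 at 23.1% and 14.3%. Ppan-201 held 71.4% and 78.7%, ahead of the retained-intron Ppan-203 at 24.03% and 15.8%.

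Ubtf is known for splice forms that differ in an HMG box, of which one drives Pol I. Of 13 Ubtf transcripts, Ubtf-202 led at 43.3% in replicate 1 and 49.9% in replicate 2, and Ubtf-206 followed at 21.5% and 15.0%. Npm1 was divided among coding transcripts, with Npm1-204 at 45.8% and 51.1% and Npm1-202 at 18.1% and 29.2%. The files do not say which Ubtf transcript encodes which form.

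**Figure D4:**
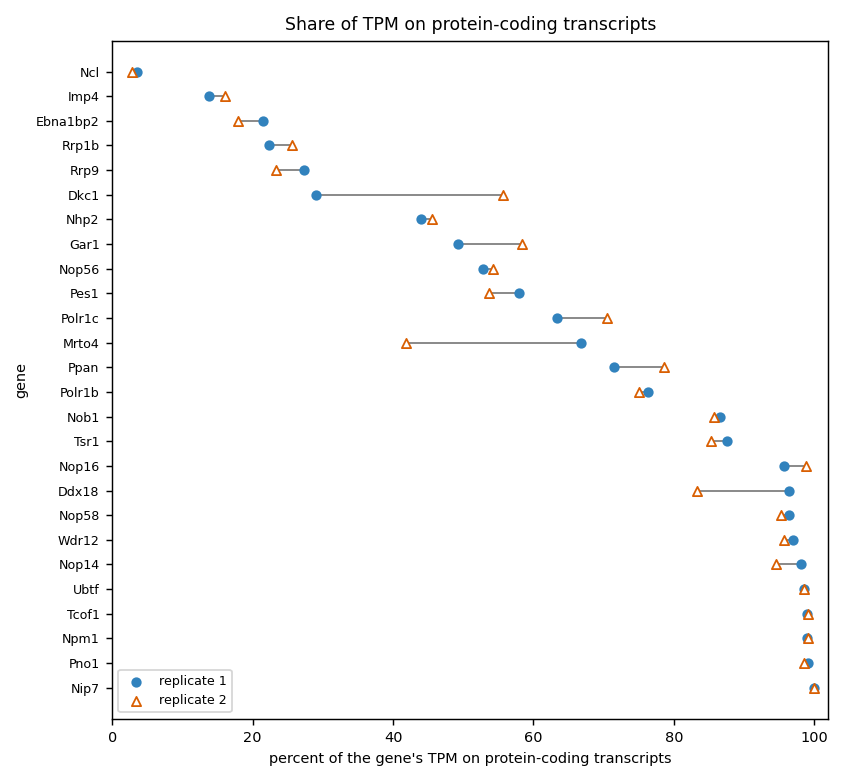
Percent of the gene's TPM on protein-coding transcripts for the 26 genes with more than 1 transcript, with replicate 1 as filled circles and replicate 2 as open triangles. Ncl lies at 3.59% and 2.80%, the lowest, and Dkc1 and Mrto4 have the widest gaps between the libraries.

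Dkc1 shows how the split among transcripts moves a gene's level. Its reads numbered 6402 in replicate 1 and 6230 in replicate 2, a log2 ratio of 0.18 once scaled to depth, yet its TPM gave a log2 ratio of 0.74. The estimated length of the gene was 1234 bases in replicate 1 and 1780 bases in replicate 2. Decay-type transcripts held 36.3% of its TPM in replicate 1 and 1.5% in replicate 2, and Dkc1-201 held 28.3% and 53.8%. In Mrto4 the coding Mrto4-201 led replicate 1 at 35.6%, against 11.9% in replicate 2. The processed transcript Mrto4-205 held 28.7% in replicate 1 and led replicate 2 at 52.1%, and the coding Mrto4-202 held 30.5% and 29.3%. Dkc1, Imp4 and Mrto4 were the 3 genes whose leading transcript differed between libraries.

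With a single length for each gene, that of its longest protein-coding transcript, the median of the 45 was 132 against 20.5 for detected protein-coding genes, on a scale of length-corrected counts scaled like TPM. On this scale 27 of the 45 stood at 100 or more. For 9 genes (Ncl, Nop58, Dkc1, Gar1, Rrp9, Imp4, Wdr12, Ebna1bp2 and Nop16) the TPM was over 1.5 times the fixed-length level, and for 0 it was under it by that factor. Ncl averaged 647 on the fixed-length scale against 2047 TPM, and Nop56, at 764, stood above it. Nop58 averaged 70.8 against 568 TPM, where the longest coding form has 9507 bases, so the order of Nop58 and Fbl (434) turned round. That form held only 0.36% of Nop58 TPM in replicate 1 and 0.35% in replicate 2, or 326 and 334 counts. The longest coding form was also little used in Ncl (8202 bases, 2.45% and 2.03% of TPM) and Wdr12 (10012 bases, 3.14% and 3.95%). In the H/ACA core Nhp2 stayed highest at 699, but Dkc1 (159) and Gar1 (172) lay below Nop10 (224). Here the longest coding form held more, with 28.3% and 53.8% of TPM in Dkc1 and 26.6% and 16.3% in Gar1. Levels of these genes relative to each other thus rest on the transcript taken for their length.

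Between the libraries 28 of the 45 genes (62.2%) differed by a two-sided exact binomial test of their counts (edgeR TMM scaling, Benjamini-Hochberg adjusted p under 0.05). Over all 15340 genes tested 30.2% were called (15.7% higher and 14.5% lower in replicate 1), and over the 3318 tested genes with at least the mean count of the lowest of the 45, 60.2%, which is near the share of the 45. The test compares these 2 libraries, not conditions, and holds counting error only. Of the 28, 24 were higher in replicate 1 and 4 were lower, namely Polr1a, Heatr1, Utp4 and Imp4, against 30.0% higher and 30.2% lower of genes at that depth. With library totals in place of TMM the split was 27 higher and 1 lower. Over all tested genes that scaling gave 2753 called higher and 1872 lower, against 2413 and 2219 with TMM. With an edgeR exact test that takes the spread between the libraries as its error (a biological coefficient of variation of 19.8%), 0 of the 45 were called and 0 had an unadjusted p under 0.05, against 2.54% of all genes called and 1.86% called higher in replicate 1. When the binomial call also had to come with a ratio at least 0.5 from 0 on the log2 scale, 0 of the 45 and 7.44% of all genes passed. The error in edgeR's test comes from the same 2 libraries that it compares, so 0 calls there do not show equal levels. The 2.54%, 1.86% and 7.44% are over all tested genes and not over those at the depth of the 45.

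The differences were small. All 45 lay within 0.5 of 0 on the log2 scale and 42 within 0.25. The shares of other genes within these limits were not computed. Of the 45, 34 lay above 0 and 11 below (37 and 8 with library totals). That is 75.6% above 0, against 49.7% of all tested genes and 49.5% of those with at least the mean count of the lowest of the 45. The median log2 ratio was 0.08 against 0.00 over all tested genes. With library totals these medians were 0.10 and 0.02. Mrto4 had 3286 counts in replicate 1 and 2736 in replicate 2, the largest log2 ratio at 0.40 (exact binomial test, adjusted p = 1.87e-25). Ebna1bp2 had 4603 and 3897 counts, a log2 ratio of 0.38 (exact binomial test, adjusted p = 1.11e-31). Fbl had 7351 and 6552 counts, a log2 ratio of 0.30 (exact binomial test, adjusted p = 1.80e-33). Next came Ubtf and Imp3 at 0.25 and Nop14 at 0.24. Among those lower in replicate 1, Utp4 had 4959 and 5855 counts and the log2 ratio of largest size at -0.10. By role, the binomial test called 4 of 4 abundant nucleolar genes and 8 of 14 large subunit genes higher in replicate 1, with none lower. It called 6 of 15 small subunit genes higher and 3 lower, and 1 of 5 Pol I genes higher and 1 lower. The box C/D genes were 2 of 3 and the H/ACA genes 3 of 4 higher, with none lower. All 8 B cell markers were lower in replicate 1 by the same test, with a median log2 ratio of -0.15, and their part in the difference was not tested. Of the 110 further pathway genes 59 were called, 50 higher and 9 lower in replicate 1, and 107 lay within 0.5. Beyond it lay Rrp1 (0.51) and Rrp15 (0.51), as well as Rpp25 on 1 and 2 counts. Spread over the 2 libraries was likewise small, with a median coefficient of variation of TPM of 4.92% over the 45, against 6.19% over protein-coding genes at that depth.

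**Figure D5:**
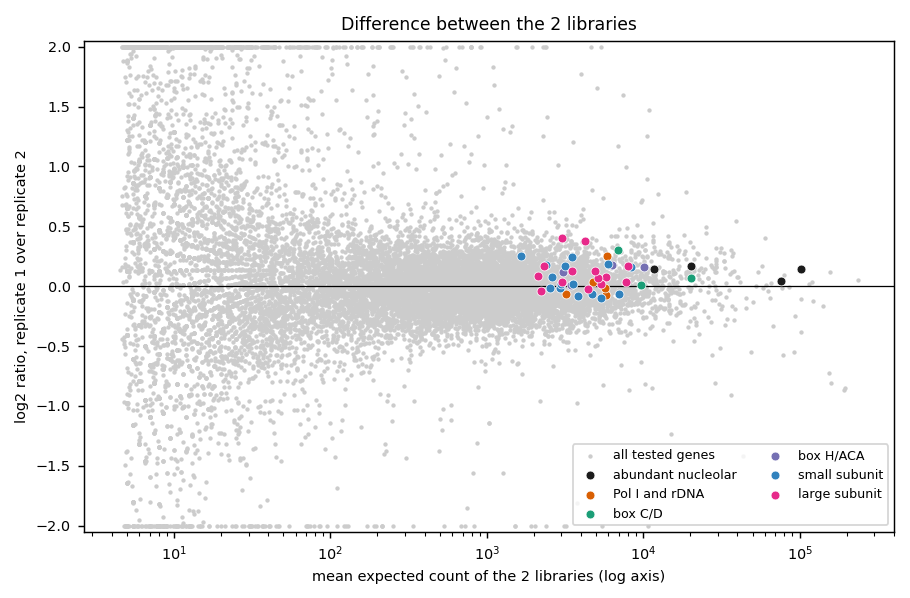
Log2 ratio of replicate 1 over replicate 2 against the mean expected count of the 2 libraries on a log axis, for all 15340 tested genes (grey, values beyond 2 in size drawn at the edge) and the 45 genes in colour by role. All 45 lie within 0.5 of 0, with 34 above 0 and 11 below (37 and 8 with library totals). Of all tested genes 49.7% lie above 0 in the ratios drawn.

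Reads that match near copies of a gene are split by estimate, and the deposited posterior SD, the uncertainty of that split, was small for all 45. It was at most 0.516% of the count (Fbl), 0 in both libraries for 20 genes, and over 5% for 0 of them, against 3.28% of detected protein-coding genes. Some of the genes nevertheless share stretches with other genes. Of all 36-base stretches of the annotated transcripts, those of Ddx18 were unique to the gene in 37.1% of cases, of Tsr1 in 68.2%, of Pes1 in 68.7% and of Npm1 in 72.3%, and 10 of the 45 lay under 90%. Ddx18, Pes1 and Npm1 share them with processed pseudogenes, whereas Tsr1 shares 28.1% with Srr, a protein-coding gene that overlaps it on the other strand. The counts of these 10 are uncertain to the extent that reads could be shared. Gm14681, an Npm1 pseudogene on chromosome X that shares 11.4% of the stretches of Npm1, had 7028 counts in replicate 1 and 13607 in replicate 2, which is 1156 and 2014 TPM. Added to Npm1 with its 3 other measured pseudogenes, the log2 ratio of Npm1 was 0.06 rather than 0.14. The pseudogenes were named after their values were seen, and whether their reads came from Npm1 was not tested.

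By GENCODE M21 on GRCm38, 8 of the 45 (17.8%) hold snoRNA genes on their own strand, against 1.99% of detected protein-coding genes, namely Ncl, Nop56, Nop58, Dkc1, Wdr43, Tsr1, Ppan and Gnl3. Of the 23 snoRNA genes inside them, 11 lie in introns and overlap no exon of any annotated transcript of the host. The rest overlap such an exon, which may belong to a retained-intron transcript. Whether they lie in introns of the coding transcripts was not examined. Among the 11 are Snord82 in Ncl at chr1:86356261-86356330, Snord110 in Nop56, Snord70 and Snord11 in Nop58, Snord92 and Snord53 in Wdr43 and Snord91a in Tsr1. The other intronic ones are Gm26287 in Nop58, Gm25520 in Dkc1, Gm22858 in Wdr43 and Gm22771 in Tsr1. Polyadenylated RNA held few reads of the 23, with 6 at 0 counts in both libraries and at most 13.0 counts in replicate 1 and 12.9 in replicate 2. Snord82 had 3 and 8 counts and Snord53 had 4 and 2.

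A start site on the other strand within 1 kb lay beside 15 of the 45 (33.3%), against 17.5% of detected protein-coding genes, and in 12 (26.7% against 11.7%) it was that of another protein-coding gene. Examples are Utp4 beside Chtf8 at 35 bases, Polr1c beside Yipf3 at 26 bases and Nop16 beside Higd2a at 117 bases. Higd2a stood at 69.6 and 77.8 TPM and Yipf3 at 35.2 and 38.9 TPM in replicates 1 and 2, while Cfap57, beside Ebna1bp2 at 22 bases, had 0 and 1 counts. The other protein-coding neighbours are Ptcd3, Ankra2, Ccdc115, Grk4, Med20, Gm20517, Hsf1, Emc1, Ubr4 and Cog8, and the highest of all was Chtf8 at 96.9 and 93.5 TPM. The non-coding ones are C130036L24Rik beside Ncl, Gm47257 beside Ddx21 and Gm31024 beside Fbl. Exons of 17 of the 45 overlap a gene on the other strand, such as Nop56 with Idh3b and Dkc1 with Mpp1. For this overlap the share over other genes was not computed. Whether counting used strand is not given in the sources used here, so reads of such partners may not have been told apart.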

How the data were processed

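Polyadenylated RNA of CH12.LX was sequenced in 2 libraries, replicates 1 and 2, with 22996547 and 25715408 expected counts. Per the deposited notes and file headers, the authors estimated expected counts, TPM, FPKM and posterior means per gene and transcript on mm10 with GENCODE M4. The deposited posterior SD of the count was read as a score in reads. The deposited isoform percent gives, per the file headers, how a gene's TPM divides among its transcripts. For the aligner, quantifier, read length and strand setting no statement is made, as each is not given in the sources used here.

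Names, types and coordinates came from GENCODE M21 (GRCm38), which matched 42462 of 43346 Ensembl entries (98.0%). Another 26345 entries that name no gene held 0.0426% and 0.0539% of counts but 18255 and 22456 TPM, and were left out of tests. Expected counts were rounded, and each of 15340 genes with at least 10 counts was tested by a two-sided exact binomial test against TMM library sizes (edgeR 4.0.16, R 4.3.3, scipy 1.17.1), with Benjamini-Hochberg adjustment at 0.05. A quasi-likelihood fit has no residual degrees of freedom here. Log2 ratios used a pseudocount of 0.5. The labels give separate biosamples, and p-values measure only counting error between the 2 libraries. Alternatives were DESeq2 1.42.0 size factors, library totals, other count minimums, posterior means, FPKM and edgeR's exact test. The binomial test was tested on simulated counts that held counting error only, so that check does not cover further spread between libraries. Genes named are all 45 members, the 2 highest, the lowest and any undetected of each other pathway list (cell type marker lists are given as sums, with a few genes named), Myc and Max, leading and second transcripts of divided members, snoRNA genes in introns, and neighbours starting within 1 kb. Members and lists were chosen with earlier results of these data known.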

Additional observations from a re-analysis of the deposited data

How the results depend on the processing

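All 45 genes, and 109 of the 110 further pathway genes, stayed detected at thresholds of 0.5 and 5 TPM, by 1 FPKM, by posterior mean TPM and in either library alone. The median level of the 45, 141 TPM, was 144 TPM rescaled to named genes, 133 by posterior mean TPM and 100.4 in FPKM, and 134 to 137 TPM with one library left out. Of the 45, 28 differed between libraries by the binomial test, 26 to 28 with other scalings, count minimums or posterior mean counts, 0 by edgeR's exact test and 0 when a log2 ratio of 0.5 was required. Of the further pathway genes the counts were 59 by the binomial test, 59 to 69 with other scalings, minimums or posterior mean counts, 0 by edgeR's exact test and 2 with that minimum size. Polr1a, Heatr1 and Imp4 lost their call with library totals, Ddx18 lost it with posterior mean counts, and Ddx10, Pes1 and Rrs1 gained one with library totals. With library totals the log2 ratios of Tcof1 (0.0047), Utp15 (0.0065) and Bysl (0.0055), none of them called, turned from just below to just above 0. By posterior mean TPM 24 mean levels moved beyond 1 SD. E-box letters occurred in 8 genes as CACGTG, in 25 as CANNTG and in 2 before the start. No member passed 2%, 5% or 10% posterior SD. No paired analysis was possible because both libraries belong to 1 group. With 2 libraries the spread is poorly known.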
